A study of Mus musculus with 4 samples.

Results

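The AP-1 family and Atf3 were followed here as 10 genes: Fos, Fosb, Fosl1, Fosl2, Jun, Junb, Jund, Atf3, Atf2 and Batf3. They were taken by name, with no threshold on a measured value but with earlier results of these data known, out of 23521 genes in the RPKM table (reads scaled to transcript length and to mapped reads), after transcript rows had been summed per gene. The material was Hepa1-6, a mouse hepatoma line, and the data were poly(A) RNA-seq. The Chd1KD group (n = 2 libraries, genotype label Chd1 knock down) carried a lentiviral shRNA against the chromatin remodeler Chd1, and the Control group (n = 2 libraries, genotype label wild type) carried a lentiviral scrambled shRNA. Both groups had been through lentiviral transduction and 3 weeks of selection in puromycin at 4 μg/ml, so neither is an untransduced culture. Neither the number of hairpins nor the origin of the libraries of a group (separate transductions or not) is stated. The p-values therefore reflect the spread among these libraries alone, and that spread could be technical.

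AP-1 is a family of transcription factors built from basic leucine zipper (bZIP) proteins that bind DNA only as dimers. JUN proteins pair with one another or with a FOS partner, and FOS proteins need a JUN partner. ATF2 and ATF3 pair with JUN proteins and with ATF partners and favour the cyclic AMP response element, with the core TGACGT, whereas FOS and JUN dimers favour TGACTCA. In liver the family is known for its rapid and short-lived induction after injury, growth factors and stress. The labels name no inducing stimulus, so the levels given here are not a measure of that induced response.

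All 10 genes are annotated as protein-coding in GENCODE M21 (GRCm38, the assembly behind mm10). Fos lies at chr12:85473890-85477273, Fosb at chr7:19302696-19310051, Fosl1 at chr19:5447547-5455946 and Fosl2 at chr5:32135801-32157842. Jun lies at chr4:95049034-95052222, Junb at chr8:84974484-84978718 and Jund at chr8:70698949-70700616. Atf3 lies at chr1:191170296-191218039, Batf3 at chr1:191097847-191108945 and Atf2 at chr2:73816509-73892639. Each was represented by 1 RefSeq transcript in the deposited table except Atf2, which had 2.

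The promoter table held 9 of the 10 genes, all except Fosl1, as windows from 250 bases before to 50 bases after the RefSeq start site (GRCm38.p6). The windows of Atf3, which had the largest fold change among the tested members, and of the inducible genes Fos, Jun and Junb are printed below 5′ to 3′ on the strand of the gene. Capitals mark matches on either strand to any of the motifs searched.
Atf3, chr1:191183284-191183583, minus strand: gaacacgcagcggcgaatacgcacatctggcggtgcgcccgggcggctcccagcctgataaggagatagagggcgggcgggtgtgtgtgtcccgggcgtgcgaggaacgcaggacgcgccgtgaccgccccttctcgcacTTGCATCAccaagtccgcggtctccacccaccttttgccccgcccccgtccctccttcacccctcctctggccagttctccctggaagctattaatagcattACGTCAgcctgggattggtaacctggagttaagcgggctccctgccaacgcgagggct
Fos, chr12:85473640-85473939, plus strand: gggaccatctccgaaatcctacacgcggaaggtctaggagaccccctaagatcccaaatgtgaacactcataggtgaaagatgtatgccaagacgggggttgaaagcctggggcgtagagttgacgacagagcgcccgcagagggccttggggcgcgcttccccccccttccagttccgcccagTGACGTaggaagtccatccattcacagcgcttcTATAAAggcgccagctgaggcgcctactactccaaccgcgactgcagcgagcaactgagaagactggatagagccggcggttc
Jun, chr4:95052173-95052472, minus strand: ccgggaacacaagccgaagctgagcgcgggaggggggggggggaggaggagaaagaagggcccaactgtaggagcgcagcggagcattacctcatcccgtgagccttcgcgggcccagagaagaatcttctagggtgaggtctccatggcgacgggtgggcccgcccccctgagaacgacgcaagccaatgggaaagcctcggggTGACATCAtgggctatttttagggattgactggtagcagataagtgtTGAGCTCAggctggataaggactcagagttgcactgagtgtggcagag
Junb, chr8:84978699-84978998, minus strand: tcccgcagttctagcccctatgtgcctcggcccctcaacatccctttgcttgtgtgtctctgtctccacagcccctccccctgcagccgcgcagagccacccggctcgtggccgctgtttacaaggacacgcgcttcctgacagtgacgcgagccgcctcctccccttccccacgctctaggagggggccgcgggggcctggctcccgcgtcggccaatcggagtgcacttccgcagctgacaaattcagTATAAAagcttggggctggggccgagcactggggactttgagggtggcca

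The motifs searched were TGACGT (the core of the cyclic AMP response element), TGANTCA (the AP-1 element), TGANNTCA (which takes in the full cyclic AMP response element and the JUN element TGACATCA, and so can overlap TGACGT), TGATGNAA (the form bound by ATF4 with C/EBP partners), TATAAA and the serum response factor CArG box. The Atf3 window held TGATGCAA on its minus strand at position -110 and TGACGT on its minus strand at position -8, each position being that of the first base of the match on the gene's strand, counted from 1 at the start site. The Jun window held TGACATCA at -45 and TGAGCTCA at position 3. The Fos window held TGACGT at -66 and TATAAA at -33, and the Junb window held TATAAA at position 1. The start site of the Junb window lies at -30 bases from the GENCODE start of the deposited transcript, and that of the Atf3 window at 7 bases from it. Among 32851 mouse promoter windows of the same length, 7.51% held TGACGT, 7.81% TGANTCA, 14.1% TGANNTCA, 3.97% TGATGNAA, 13.6% TATAAA and 1.63% a CArG box. Neither TGANTCA nor a CArG box was found in any of the 9 windows, and sequence outside the windows was not searched. The start site of the Fosl2 window lies at 671 bases from the GENCODE start, and that of Jund, whose window held TGAAATCA at -61, lies at -1210 bases. Neither window therefore holds the GENCODE start of the deposited transcript, and their matches or lack of matches do not describe the sequence around it.

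The libraries were much alike. Summed RPKM was 459381 to 466950 in the Chd1KD libraries and 462332 to 484490 in the Control libraries, and log2(RPKM + 1) over 10209 genes correlated at 0.995 within Chd1KD, 0.992 within Control and 0.990 to 0.994 across groups. Read depth is unknown, so no counting interval is given. Chd1 fell to 10.4 and 11.3 RPKM in the Chd1KD libraries, against 21.4 and 22.5 RPKM in the Control libraries (limma, adjusted p = 0.012), and did not pass without the filter on low values (limma, adjusted p = 0.25). Of 10 hepatocyte and hepatoma markers 6 averaged at least 1 RPKM, led by Alb, Afp and Hnf4a, while Ttr and Serpina1a were listed at 0 in all 4 libraries, and their summed level was 182.1 and 201.9 RPKM in Chd1KD against 151.1 and 207.7 RPKM in Control. All 13 matched markers of other liver cell types averaged below 1 RPKM. The highest was Krt19, a keratin of bile duct cells, at 0.085 and 0 RPKM in Chd1KD and 1.13 and 1.04 RPKM in Control. Of the 13, 8 were listed at 0 in all 4 libraries. Their summed level was 0.45 and 0.23 RPKM in Chd1KD and 1.42 and 1.17 RPKM in Control, and its part in the results was not tested. In bulk RNA, fewer cells expressing a gene and less of its RNA per cell cannot be told apart.

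The test took in every gene averaging 1 RPKM or more, which left 7 of the 10 members: Fosl1, Fosl2, Jun, Junb, Jund, Atf3 and Atf2. None of the 7 passed at an adjusted p under 0.05 (limma, Benjamini-Hochberg over 10209 genes), where 47 of all genes tested (0.460%; 0.274% higher and 0.186% lower) did. At an unadjusted p under 0.05 there were 3 of the 7 (limma), Atf3 and Fosl2 with higher values and Fosl1 with lower values in Chd1KD, against 18.5% of all genes tested (7.24% higher and 11.3% lower). Among the 7, the groups did not overlap for the same 3, against 51.8% of all genes tested. The log2 fold change was above 0 for 5 of the 7, against 43.5% of all genes tested. The median was 0.11 over the 7 tested members and -0.02 over all genes tested.

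**Figure D1:**
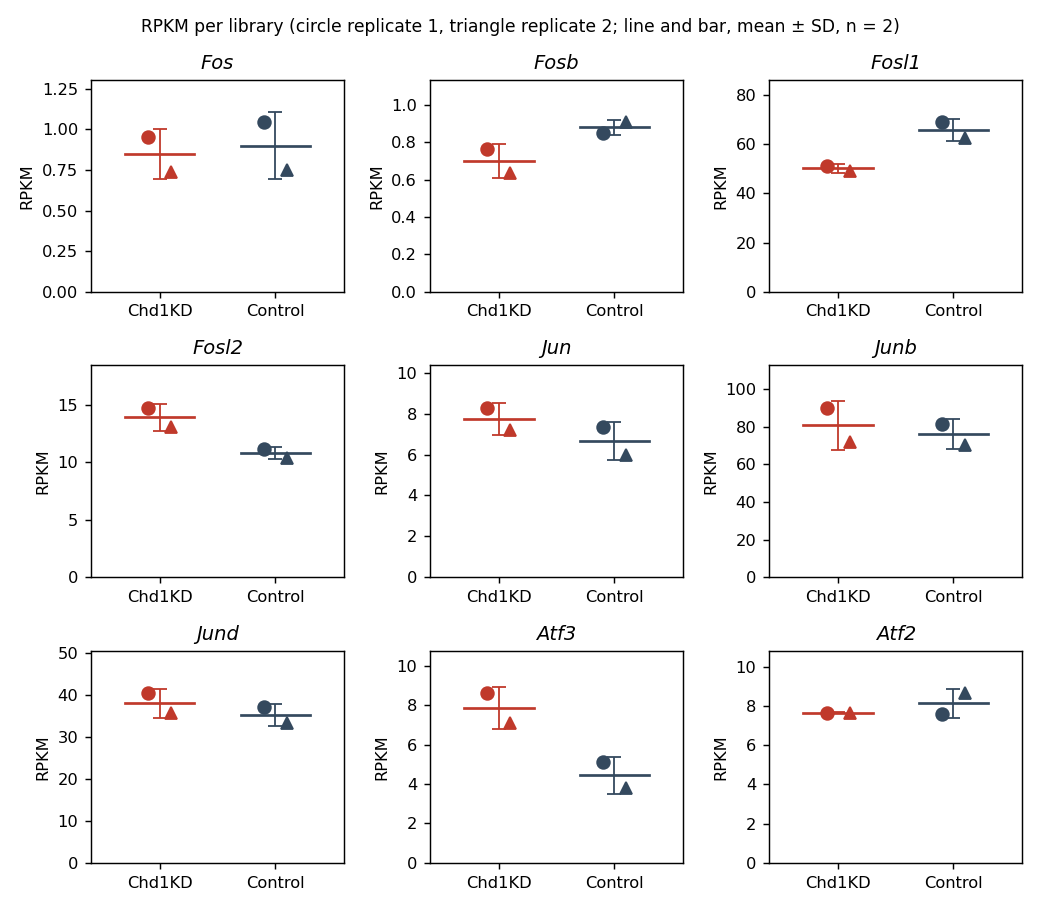
RPKM of 9 members in each library, Chd1KD left of Control in every panel, with the mean as a line and the SD as a bar (n = 2 each); each vertical axis starts at 0 and has its own range. The groups are apart for Fosb, Fosl1, Fosl2 and Atf3 and overlap for Fos, Jun, Junb, Jund and Atf2; Batf3, listed at 0 in every library, is not drawn.

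FOS proteins act only with a JUN partner. Fosl1 encodes FRA-1, a FOS protein that lacks the strong activation domain of FOS and is prominent in transformed epithelial cells. Fosl1 had 51.2 and 48.9 RPKM in the Chd1KD libraries, against 68.9 and 62.6 RPKM in the Control libraries. Both Chd1KD libraries lay below both Control libraries, and the gap between the nearest libraries of different groups was larger than the gap within either group. The means were 50.1 ± 1.64 RPKM in Chd1KD and 65.8 ± 4.47 RPKM in Control (SD, n = 2 each), a ratio of 0.76. The log2 fold change on the log2(RPKM + 1) scale was -0.38, with a 95% interval from -0.55 to -0.22 (limma, adjusted p = 0.079). Fosl1 passed the test when libraries were scaled to their summed RPKM (log2 fold change -0.35, limma adjusted p = 0.041). It did not pass with no filter on low values (limma, adjusted p = 0.25) or without a variance trend (limma, adjusted p = 0.12). With a library left out its log2 fold change ranged from -0.45 to -0.32.

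The Fosl1 locus overlaps the gene Ccdc85b, which is transcribed from the other strand and has an exon across the last exons of Fosl1. The strand setting of the authors' quantification is not stated, so reads of the pair may be shared. Ccdc85b itself had 13.0 and 13.3 RPKM in Chd1KD, against 13.8 and 13.8 RPKM in Control. Its log2 fold change was -0.06, SE 0.06 (limma, adjusted p = 0.62).

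Fosl2 encodes FRA-2, the relative of FRA-1 that also lacks the strong activation domain. It had 14.7 and 13.0 RPKM in the Chd1KD libraries, against 11.2 and 10.4 RPKM in the Control libraries. Both Chd1KD libraries lay above both Control libraries, the opposite side from Fosl1. The means were 13.9 ± 1.20 RPKM in Chd1KD and 10.8 ± 0.56 RPKM in Control (SD, n = 2 each), a ratio of 1.29. On the same scale the log2 fold change was 0.33, with a 95% interval from 0.14 to 0.53 (limma, adjusted p = 0.12). It was 0.25 without Chd1KD replicate 1 and 0.42 without Chd1KD replicate 2, and passed in neither.

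Fos, the founding member and a classical immediate early gene, was near the bottom of the family. It had 0.96 and 0.74 RPKM in the Chd1KD libraries, against 1.04 and 0.75 RPKM in the Control libraries, and the groups overlapped. Fosb, the immediate early gene most like Fos, had 0.77 and 0.64 RPKM in the Chd1KD libraries, against 0.85 and 0.91 RPKM in the Control libraries. Its Chd1KD libraries lay below its Control libraries. Both genes averaged below 1 RPKM and were not tested.

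Within the FOS group the balance between Fosl1 and Fosl2 did not overlap between Chd1KD and Control libraries. RPKM is scaled to transcript length, so levels of different genes can be set side by side. Fosl1 held 75.7% and 77.2% of the summed FOS RPKM in the Chd1KD libraries, against 84.0% and 83.8% in the Control libraries. Fosl2 held 21.8% and 20.6% in the Chd1KD libraries, against 13.6% and 13.9% in the Control libraries. The ratio of Fosl1 to Fosl2 was 3.48 and 3.75 in Chd1KD, against 6.16 and 6.02 in Control, with means of 3.62 ± 0.19 and 6.09 ± 0.10 (SD, n = 2 each). The 4 ratios fell into their groups without overlap and with little spread inside each. An exact two-sided permutation test of the log2 ratio gave p = 0.333, which is the smallest it can give with 2 against 2 libraries. The ratio was chosen after the values of both genes had been seen. Fosl1 lay lower and Fosl2 higher in both Chd1KD libraries than in both Control libraries. The separation of the ratio and its p were therefore fixed by those values and are no further support.

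**Figure D2:**
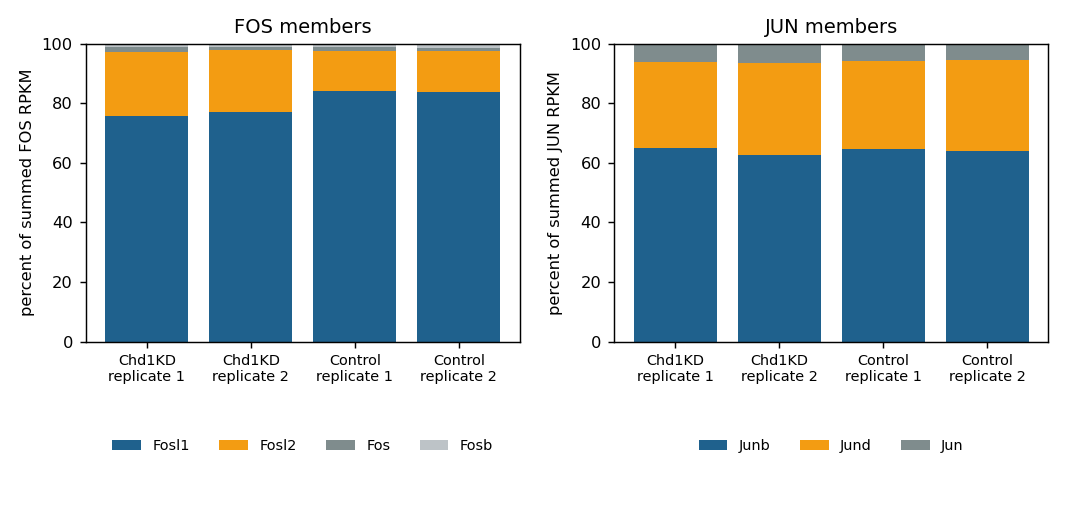
Share of the summed FOS RPKM (left panel) and the summed JUN RPKM (right panel) held by each member, in percent, 1 bar per library with the Chd1KD libraries left of the Control libraries. The Fosl2 block is about 21% in Chd1KD and 14% in Control, while the JUN blocks are at nearly the same height in all 4 bars.

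The JUN proteins supply the partner that every AP-1 dimer with FOS requires. Junb, often a weaker activator than JUN and a brake on growth in several tissues, was the most abundant member. It had 90.1 and 71.7 RPKM in the Chd1KD libraries, against 81.7 and 70.4 RPKM in the Control libraries. The groups overlapped, and the gap between the Chd1KD libraries exceeded the difference between the means of 80.9 RPKM in Chd1KD and 76.0 RPKM in Control (n = 2 each). The log2 fold change was 0.08, with a 95% interval from -0.20 to 0.37 (limma, adjusted p = 0.74). It was -0.08 without Chd1KD replicate 1 and -0.02 without Control replicate 2.

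Jund, the JUN gene that is expressed broadly and least dependent on induction, had 40.4 and 35.6 RPKM in the Chd1KD libraries. The Control libraries had 37.1 and 33.3 RPKM, and the groups overlapped. Jund had a log2 fold change of 0.11, with a 95% interval from -0.09 to 0.31 (limma, adjusted p = 0.53). Jun, the founding JUN gene and the target of the JUN kinases, had 8.29 and 7.19 RPKM in the Chd1KD libraries, against 7.33 and 5.99 RPKM in the Control libraries. Here too the groups overlapped, and the log2 fold change was 0.19, with a 95% interval from -0.07 to 0.45 (limma, adjusted p = 0.38). The intervals of Jun, Junb and Jund all include 0.

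The 3 JUN genes kept nearly the same proportions in both groups. Junb held 64.9% and 62.6% of the summed JUN RPKM in Chd1KD, against 64.8% and 64.2% in Control. Jund held 29.1% and 31.1% in Chd1KD, against 29.4% and 30.4% in Control. Jun held 5.97% and 6.28% in Chd1KD, against 5.81% and 5.46% in Control. Summed JUN RPKM was 138.9 and 114.5 in Chd1KD and 126.2 and 109.7 in Control, with overlapping groups. Summed FOS RPKM was 67.7 and 63.3 in Chd1KD and 82.0 and 74.7 in Control, without overlap. The ratio of summed JUN to summed FOS RPKM was 2.05 and 1.81 in Chd1KD and 1.54 and 1.47 in Control. Fosl1 held most of the FOS sum in every library, so the separation of that sum largely restates the Fosl1 values. Neither the FOS sum nor its ratio to JUN is a further result.

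The Junb locus meets the gene Prdx2, on the other strand, only through the last exon of a noncoding Junb transcript that the deposited Junb transcript does not contain. Jun and Jund each overlap an annotated antisense gene, so without the strand setting their reads and those of the antisense gene cannot be told apart.

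Atf3 encodes a bZIP factor that stress induces and that represses transcription as a homodimer. It had 8.61 and 7.09 RPKM in the Chd1KD libraries, against 5.12 and 3.78 RPKM in the Control libraries. Both Chd1KD libraries lay above both Control libraries, although the spread inside each group was also wide. The means were 7.85 ± 1.07 RPKM in Chd1KD and 4.45 ± 0.94 RPKM in Control (SD, n = 2 each), a ratio of 1.76. The log2 fold change was 0.70, the largest of the 7 tested members in size, with a 95% interval from 0.38 to 1.03 (limma, adjusted p = 0.089). Atf3 passed without Chd1KD replicate 2 (0.83, limma adjusted p = 0.014) and without Control replicate 1 (0.88, limma adjusted p = 0.024), and not without Chd1KD replicate 1 (0.58) or Control replicate 2 (0.53).

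Set against its partner Jun, Atf3 was at a ratio of 1.04 and 0.99 in Chd1KD and 0.70 and 0.63 in Control. Atf3 and Jun were thus near the same level per length in Chd1KD, and Atf3 was below Jun in both Control libraries. Jun itself overlapped between the groups, so the separation of the ratio of Atf3 to Jun came mainly from Atf3 and is no further result. The ratio of Fosl1 to Atf3 was 5.96 and 6.90 in Chd1KD, against 13.5 and 16.5 in Control. Fosl1 was lower and Atf3 higher in both Chd1KD libraries, so the separation of this ratio follows from those values and is no further result.

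Atf2 encodes a constitutive partner of JUN that the p38 and JUN kinases activate by phosphorylation. It had 7.62 and 7.66 RPKM in the Chd1KD libraries, against 7.60 and 8.64 RPKM in the Control libraries, and the groups overlapped. The log2 fold change was -0.08, with a 95% interval from -0.27 to 0.12 (limma, adjusted p = 0.65), and it was 0.01 without Control replicate 2. Most of Atf2 came from 1 of its 2 deposited transcripts. The other held 12.9% and 5.16% of Atf2 RPKM in Chd1KD and 18.5% and 3.90% in Control, so its share differed more within each group than between the group means.

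Batf3, a JUN partner known for its role in dendritic cells, was listed at 0 in all 4 libraries. A listed 0 need not mean absence in this table, because 10 genes that averaged at least 5 RPKM were also listed at 0 in some library.

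**Figure D3:**
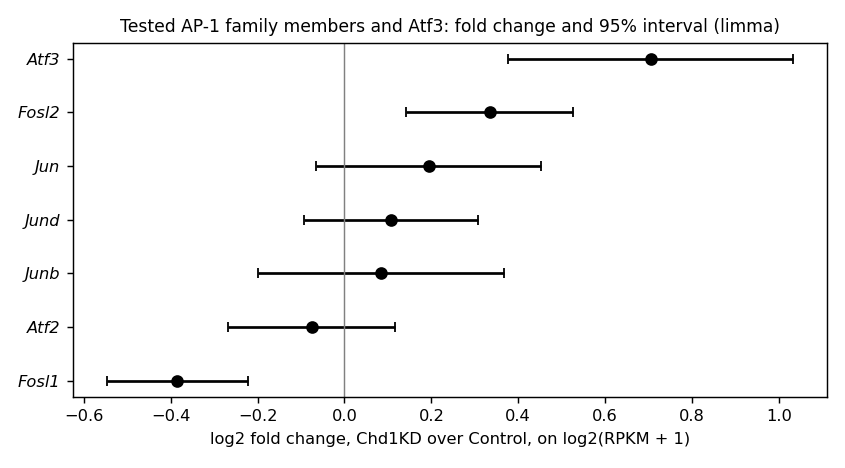
Log2 fold change of Chd1KD over Control on the log2(RPKM + 1) scale for the 7 tested members (points), with limma's 95% interval for each gene taken alone (bars). The intervals of Atf3 and Fosl2 lie above 0 and that of Fosl1 below 0, while those of Jun, Jund, Junb and Atf2 span 0; none of the 7 passed after adjustment over all genes.

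Ordered by mean RPKM over the 4 libraries, the family ran from Junb (78.5) through Fosl1 (57.9), Jund (36.6), Fosl2 (12.3), Atf2 (7.88), Jun (7.20), Atf3 (6.15), Fos (0.87) and Fosb (0.79) to Batf3 at 0. The ranges over the 4 libraries were separate between each neighbouring pair from Junb to Atf2, between Atf3 and Fos, and between Fosb and Batf3. Atf2, Jun and Atf3 overlapped in their ranges, as did Fos and Fosb. Junb ranked 959th and Fosl1 ranked 1357th among all 23521 genes by mean RPKM.

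Atf3 also had the widest range over the 4 libraries among the tested members, 1.01 on the log2(RPKM + 1) scale. The 5 genes of 10208 whose centred log2 profiles lay nearest to it, by root mean square difference over 4 libraries, were Gm19705 (0.034), Lmcd1 (0.045), Glipr2 (0.046), Serpinb2 (0.064) and Abcg2 (0.065). Serpinb2, a serine protease inhibitor, had 15.99 and 13.4 RPKM in Chd1KD and 9.77 and 6.65 RPKM in Control. Glipr2 had 6.76 and 5.20 RPKM in Chd1KD and 3.53 and 2.77 RPKM in Control. These likenesses are a description over 4 libraries, with no test.

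Around the family, genes of the same protein class, pathway and response were counted in lists, whose counts at an unadjusted p under 0.05 stand beside 18.5% of all genes tested (7.24% higher and 11.3% lower). Of 28 tested genes for other bZIP factors (40 matched), 1 fell and none rose (limma, adjusted p under 0.05), 7 had an unadjusted p under 0.05, and the list's median was a log2 fold change of 0.03.

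Creb3, a membrane-bound bZIP factor of the endoplasmic reticulum, had 49.5 and 48.8 RPKM in Chd1KD and 39.5 and 38.4 RPKM in Control (limma, adjusted p = 0.073). It passed with libraries scaled to summed RPKM (limma, adjusted p = 0.034). The log2 fold change of Creb3 was 0.35 without Control replicate 1 and 0.31 without Control replicate 2. Atf6b, a relative of the unfolded protein sensor ATF6, had 24.4 and 23.6 RPKM in Chd1KD and 27.9 and 28.4 RPKM in Control (limma, adjusted p = 0.14).

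Among the other immediate early genes, which share the rapid induction of Fos and Jun, none of 31 tested passed (limma). Of these, 8 had an unadjusted p under 0.05, 4 in each direction, and the median log2 fold change was 0.04. Btg2, an antiproliferative gene, had 23.3 and 16.4 RPKM in Chd1KD and 14.3 and 10.2 RPKM in Control, a ratio of 1.62 (limma, adjusted p = 0.16). The log2 fold change of Btg2 was 0.41 without Chd1KD replicate 1 and 0.89 without Chd1KD replicate 2. Klf4, a zinc finger factor, had 11.8 and 13.1 RPKM in Chd1KD and 15.3 and 16.5 RPKM in Control (limma, adjusted p = 0.11). Klf2 had 0.87 and 1.12 RPKM in Chd1KD and 1.67 and 1.63 RPKM in Control (limma, adjusted p = 0.15).

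None of the 26 tested kinases and ternary complex factors upstream of AP-1 passed, and 5 had an unadjusted p under 0.05 (limma), with a median log2 fold change of 0.01. Mapk8ip3, a scaffold of JUN kinase signalling, had 15.3 and 14.4 RPKM in Chd1KD and 11.6 and 11.9 RPKM in Control. Map2k6, an activating kinase of p38, had 13.0 and 14.0 RPKM in Chd1KD and 16.8 and 17.6 RPKM in Control (limma, adjusted p = 0.10 for both genes). The log2 fold change of Mapk8ip3 was 0.31 over summed transcripts. It was 0.16 with its most abundant transcript alone (limma, adjusted p = 0.37). Elk3, a ternary complex factor of the serum response element, had 18.0 and 17.3 RPKM in Chd1KD and 21.2 and 20.2 RPKM in Control (limma, adjusted p = 0.15). Of 18 tested genes for turnover and coactivation of JUN and FOS proteins, none passed and 1 had an unadjusted p under 0.05 (limma). The median log2 fold change of this list was 0.02. Ubr1 and Dda1, which act in ubiquitin ligases, had ratios of 0.87 and 1.09.

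Of 24 tested genes described as AP-1 targets, none passed and 8 had an unadjusted p under 0.05 (33.3%, against 18.5% of all genes tested; limma). Of the 8, 3 had higher and 5 lower values in Chd1KD, where all genes tested gave 7.24% higher and 11.3% lower. Their median log2 fold change was 0.01, beside -0.02 over all genes tested. Il11, a cytokine of the interleukin-6 family, had 5.07 and 2.71 RPKM in the Chd1KD libraries, against 1.53 and 0.80 RPKM in the Control libraries. The ratio of means was 3.34, with a wide spread in each group (limma, adjusted p = 0.10). The log2 fold change of Il11 was 0.80 without Chd1KD replicate 1 and 1.51 without Chd1KD replicate 2. Spp1, which encodes osteopontin, had 131.9 and 137.0 RPKM in Chd1KD and 188.8 and 161.7 RPKM in Control (limma, adjusted p = 0.10). The log2 fold change of Spp1 was -0.27 without Control replicate 1 and -0.49 without Control replicate 2. Krt18, a keratin of simple epithelia, had 620.9 and 621.7 RPKM in Chd1KD and 743.0 and 737.6 RPKM in Control (limma, adjusted p = 0.11).

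Atf3 itself is a target of ATF4 in the integrated stress response. Of 26 tested genes of that response, none passed and 8 had an unadjusted p under 0.05 (30.8%, against 18.5% of all genes tested; limma). Among these, 5 had higher and 3 lower values in Chd1KD, against 7.24% and 11.3% of all genes tested. The median log2 fold change of this list was 0.10. Chac1, a glutathione-degrading enzyme that ATF4 induces, had 2.48 and 2.62 RPKM in Chd1KD and 1.66 and 1.29 RPKM in Control (limma, adjusted p = 0.10). Slc7a11, the cystine transporter, had 8.61 and 10.4 RPKM in Chd1KD and 6.08 and 7.49 RPKM in Control (limma, adjusted p = 0.15). Phgdh, the serine synthesis enzyme and also an ATF4 target, lay on the other side, with 569.5 and 604.8 RPKM in Chd1KD and 723.6 and 668.6 RPKM in Control (limma, adjusted p = 0.15).

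The hepatocyte and hepatoma markers lay on both sides of 0. None of the 6 that were tested passed, and their median log2 fold change was -0.17. At an unadjusted p under 0.05 there were 5 (83.3%, against 18.5% of all genes tested; limma). Of the 5, 1 had higher and 4 lower values in Chd1KD, where all genes tested gave 7.24% higher and 11.3% lower. Alb had 42.2 and 53.0 RPKM in Chd1KD and 18.6 and 55.6 RPKM in Control, with overlapping groups (limma, adjusted p = 0.54). Afp, the fetal serum protein that hepatomas express, had 55.2 and 58.3 RPKM in Chd1KD and 29.9 and 39.7 RPKM in Control (limma, adjusted p = 0.077). The log2 fold change of Afp was 0.70, and it was 0.50 without Control replicate 1 and 0.90 without Control replicate 2. It was 0.74 without Chd1KD replicate 1 and 0.66 without Chd1KD replicate 2. With no filter on low values Afp did not pass (limma, adjusted p = 0.26), but its call was not the same in all alternatives. Hnf4a, the nuclear receptor of hepatocyte identity, had 35.5 and 40.7 RPKM in Chd1KD and 46.4 and 50.9 RPKM in Control (limma, adjusted p = 0.12). Apob, the lipoprotein gene, had 8.32 and 9.92 RPKM in Chd1KD and 11.7 and 13.6 RPKM in Control (limma, adjusted p = 0.12). The log2 fold change of Apob was -0.32 without Chd1KD replicate 1 and -0.55 without Chd1KD replicate 2. The part of these markers in the results on the family was not tested.

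**Figure D4:**
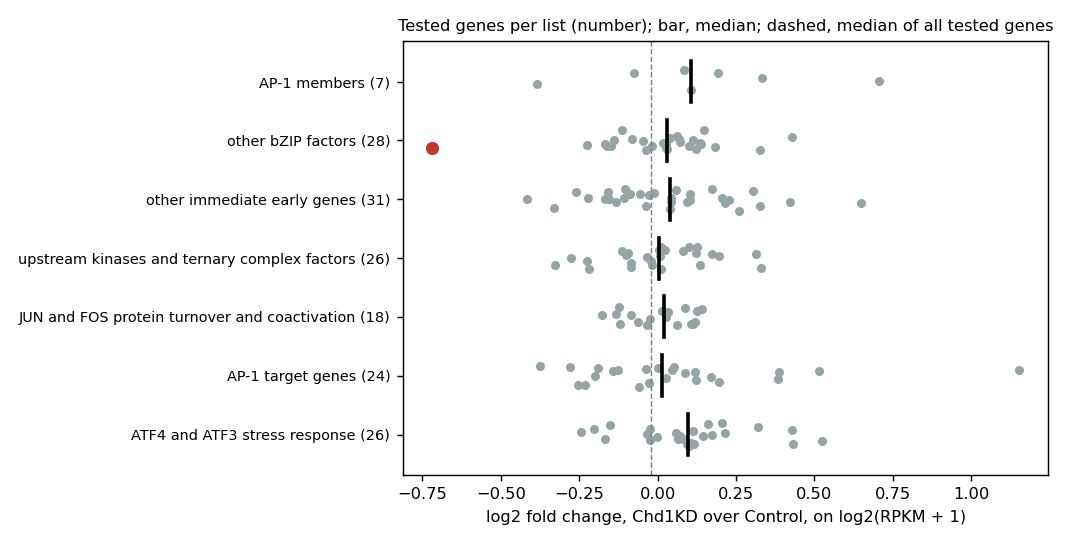
Log2 fold change of Chd1KD over Control for every tested gene of the family and of 6 related lists (points), with the list median as a black bar and the median of all tested genes as a dashed line. All list medians lie between 0 and 0.11, beside -0.02 for all tested genes; the larger red point marks the gene with an adjusted p under 0.05.

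**Figure D5:**
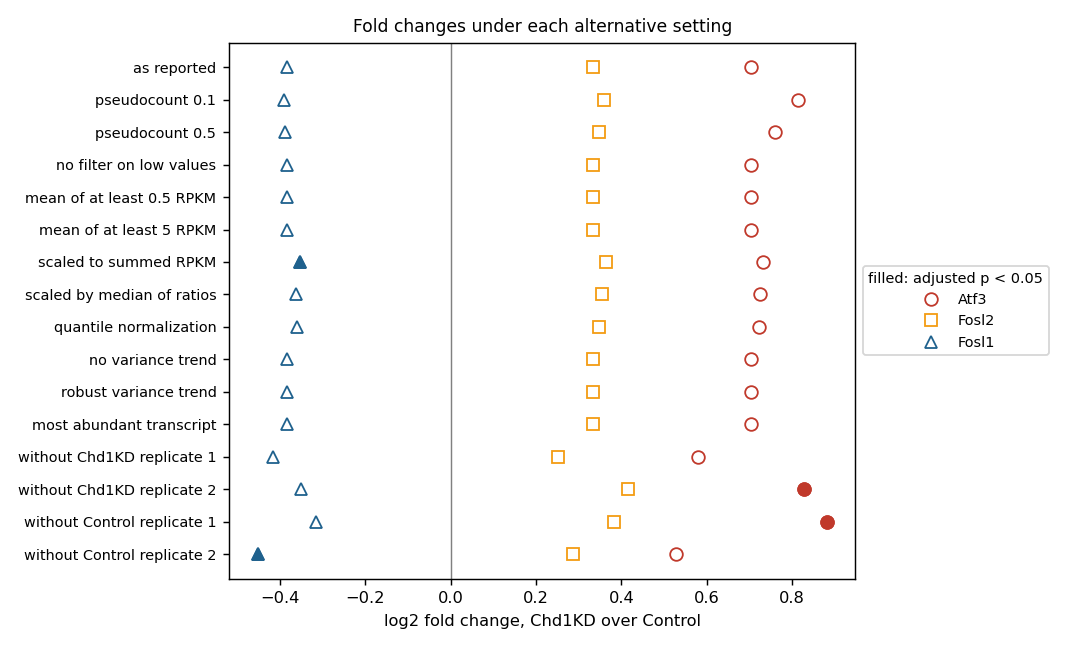
Log2 fold change of Chd1KD over Control for Atf3, Fosl2 and Fosl1 as reported and under 15 of the 16 alternative settings, with filled symbols where the adjusted p was under 0.05. Every symbol keeps its side of 0, and filled symbols appear for Atf3 when Chd1KD replicate 2 or Control replicate 1 is left out, and for Fosl1 with scaling to summed RPKM or without Control replicate 2. The fit with the replicate number as a block, which changes calls of all 3 genes, is not drawn and its values stand in the account of how the results depend on the processing.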

How the data were processed

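The authors deposited RPKM values for 30582 RefSeq transcripts in 4 libraries, per the file headers, and TopHat 1.4.1, Cufflinks 1.3.0 and mm10 are named in the submitters' processing notes. Annotation release, strand setting and filters are not stated in those notes or in the labels. From 10 μg of total RNA, poly(A) RNA was sequenced, per the labels' protocols. The 4 single-library tables equalled the series table, which was used. Transcripts were named through NCBI's GRCm38.p6 table (30003 rows) and GENCODE M21 (180 rows), 399 kept their accession, and RPKM was summed per gene. RPKM carry no counts: among 1128 low transcripts the commonest ratio between libraries held only 64 to 72 values, so whole reads were not recovered and depth is unknown.

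log2(RPKM + 1) of the 10209 genes averaging at least 1 RPKM was fitted with limma 3.58.1 (R 4.3.3), a scale that understates changes of low genes, with a mean-variance trend and no covariate. A call was a p under 0.05 after Benjamini-Hochberg adjustment. Of 216 list entries 214 were matched, 5 through an older symbol. Members and lists were chosen with earlier results of these data known. Named genes were the members, Chd1, up to 3 tested genes per list with the smallest p and every called one (up to 4), and the 5 genes nearest to Atf3; Ccdc85b and Krt19 were added, and the motifs chosen, after values were seen. Some genes that this rule names are not reported here. Alternatives were pseudocounts of 0.1 and 0.5, 3 filters, 3 scalings, 2 variance models, the replicate number as a block, the most abundant transcript, and each library left out. Promoter sequences are from RefSeq (GRCm38.p6). Figures were drawn with matplotlib 3.10.9.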

Additional observations from a re-analysis of the deposited data

How the results depend on the processing

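The signs of Atf3, Fosl2, Fosl1, Jun and Jund were the same in all 16 alternatives; Junb and Atf2 turned without single libraries (Junb -0.080 without Chd1KD replicate 1 and -0.02 without Control replicate 2, range -0.080 to 0.25; Atf2 0.0070 without Control replicate 2, range -0.16 to 0.0070). The number of genes called was 47; it was 0 with no such filter on mean RPKM (limma, 2153 genes at an unadjusted p under 0.05), 71 at a mean of at least 5 RPKM, 95 with scaling to summed RPKM (65 higher and 30 lower, against 28 and 19), 6 without a variance trend, 92 with a robust trend, 12 with the most abundant transcript, and 49 to 236 with a library left out. Members called were 0, with 1 (Fosl1) under scaling to summed RPKM and 0 to 1 with a library left out. Genes of the related lists called were 1, with 2 under scaling to summed RPKM, 0 without a filter or without a variance trend, and 1 to 6 with a library left out. The cause was not tested. The replicate numbers carried no stated pairing, and deviations of same-numbered libraries correlated at 0.22 over 10209 genes. With the replicate block 325 genes were called, 3 of them members (limma, adjusted p = 0.016 for Atf3, 0.024 for Fosl1 and 0.045 for Fosl2) and 11 in the related lists. With 2 libraries a group the smallest exact permutation p is 0.333, and read depth is unknown.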
